A study of Mus musculus with 2 samples.

Results

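The genes described are Kit, its ligand gene Kitl, and 6 further cytokine receptor genes of blood progenitors, namely Flt3, Csf1r, Csf3r, Csf2rb, Il3ra and Il6st. They were chosen by name, with no measured value in the rule but with earlier results of these data known. They are 8 of the 21938 protein-coding genes of the GENCODE vM21 annotation of the mm10 genome. For each gene, every DNase-seq peak within 1 kb of an annotated transcription start and every peak within 150 kb of the gene body was collected, with the footprints and the stretches where the authors list a false discovery rate of cleavage, all under 0.05. This gave 94 open sites, of which 11 lay at a start of their own gene, 29 at a start of another gene and 54 were distal, meaning over 1 kb from the start of any gene, non-coding genes included.

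DNase-seq finds accessible chromatin as places where the nuclease DNase I cuts nuclei readily, and a footprint is a short protected stretch inside such a place. The tissue was embryonic mouse liver at 13.5 days, from animals of the mixed strain C57BL/6N,129 that bore an LCR deletion together with a HET globin mutation. Both libraries, biological replicates 1 and 2, belong to this 1 group. They came from separate biosamples with 1 shared donor identifier, the labels describe both by the same genotype, and no unmodified animals were analysed here, so nothing below compares genotypes. The size of the deletion and the genotype of single embryos were not given in the sources used here.

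KIT is the receptor tyrosine kinase for stem cell factor, the product of Kitl. In the fetal liver, stem cell factor from stromal cells sustains stem cells and early erythroid progenitors, and Kit is switched off as erythroblasts mature under GATA1. FLT3 and the CSF1 receptor are kinases of the same structural class, used by lymphoid-primed progenitors and by macrophages. The G-CSF receptor (Csf3r) serves granulocytes, the IL-3 receptor alpha chain (Il3ra) works with the common beta chain (Csf2rb) that the GM-CSF and IL-5 receptors also use, and gp130 (Il6st) is the signal chain shared by the IL-6 family in many tissues.

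Replicate 1 had 47198 peaks with a median value of 1.232, and replicate 2 had 36523 with a median of 1.248. The value is the authors' cleavage signal at the peak, and its scaling between libraries was not given in the sources used here. Each library's values are therefore read against its own peaks. Read as 1 read per step of the value, the depths were 81.2 and 72.1 times 1e6 reads. The 95% Poisson intervals given below rest on that reading, cover counting error only, and say nothing of how embryos vary. Among marker genes chosen for this tissue, 8 of 9 erythroid genes found in the annotation and 6 of 9 stem and progenitor genes had a promoter peak in both libraries. For granulocytes and monocytes the count was 0 of 6, for macrophages 0 of 8 and for mast cells, which depend on Kit, 0 of 8. It was 2 of 5 for melanocytes, 1 of 3 for germ cells, 1 of 5 for megakaryocytes, 1 of 5 for lymphoid cells, 1 of 3 for dendritic cells, 3 of 7 for hepatoblasts, 1 of 6 for endothelium and 4 of 8 for stellate and mesenchymal cells. Across all protein-coding genes the share was 54.1%. In whole tissue, fewer cells with an open site and a less open site in each cell cannot be told apart.

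The sequences that carry the Kit results are the promoter and the 4 distal sites that hold a GATA motif, the letters bound by GATA1 and GATA2. They are shown on the plus strand of mm10, which is also the coding strand of Kit. Distances are from the first annotated start of Kit to the middle of a site. In the distal sites the capitals mark every GATA motif (AGATAA, or the same with T as its first letter, G as its last letter or both, on either strand) and, where present, the CTG of a GATA-E-box composite, which is CTG followed after 6 to 9 bases by a GATA motif. In the promoter, cut to its part before the first start, the capitals mark bases inside a footprint in both libraries. The sites are the intergenic one at -114.2 kb (chr5:75460601-75460800), 2 in introns of Kit at 33.2 kb (chr5:75607961-75608240) and 49.6 kb (chr5:75624417-75624540), the intergenic one at 187.1 kb (chr5:75762101-75762320, the part open in replicate 1), and the promoter part (chr5:75574821-75574915).
Kit -114.2 kb: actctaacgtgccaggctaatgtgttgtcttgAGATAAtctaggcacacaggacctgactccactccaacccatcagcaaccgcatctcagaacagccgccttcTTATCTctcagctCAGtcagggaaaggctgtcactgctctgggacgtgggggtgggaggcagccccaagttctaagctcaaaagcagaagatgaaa
Kit 33.2 kb: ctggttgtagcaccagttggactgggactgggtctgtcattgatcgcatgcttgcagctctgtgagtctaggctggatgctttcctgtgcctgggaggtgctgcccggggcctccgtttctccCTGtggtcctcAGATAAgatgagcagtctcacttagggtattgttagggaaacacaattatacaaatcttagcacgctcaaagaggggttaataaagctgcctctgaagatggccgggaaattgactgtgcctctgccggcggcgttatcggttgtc
Kit 49.6 kb: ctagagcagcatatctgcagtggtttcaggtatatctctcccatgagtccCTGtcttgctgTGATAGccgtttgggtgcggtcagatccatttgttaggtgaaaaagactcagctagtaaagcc
Kit 187.1 kb: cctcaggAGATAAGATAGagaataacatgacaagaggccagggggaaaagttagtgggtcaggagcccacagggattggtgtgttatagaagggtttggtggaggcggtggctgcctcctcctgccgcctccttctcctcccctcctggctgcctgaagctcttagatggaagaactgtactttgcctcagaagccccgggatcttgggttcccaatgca
Kit promoter: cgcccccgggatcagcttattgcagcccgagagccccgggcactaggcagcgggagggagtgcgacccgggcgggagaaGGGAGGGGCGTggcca

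Sites near 2 other members are shown because their letters differ in kind. At Csf2rb the site at -4.7 kb (chr15:78320921-78321120, intergenic) holds the pattern of CTCF, a factor that marks chromatin boundaries, in capitals. At Il6st the site at -24.0 kb (chr13:112439981-112440200, intergenic) holds 3 KLF motifs, in capitals as read on the opposite strand.
Csf2rb -4.7 kb: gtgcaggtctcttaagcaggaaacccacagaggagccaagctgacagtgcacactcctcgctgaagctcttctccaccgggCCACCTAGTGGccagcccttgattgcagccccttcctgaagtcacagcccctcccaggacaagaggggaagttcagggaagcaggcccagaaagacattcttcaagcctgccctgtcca
Il6st -24.0 kb: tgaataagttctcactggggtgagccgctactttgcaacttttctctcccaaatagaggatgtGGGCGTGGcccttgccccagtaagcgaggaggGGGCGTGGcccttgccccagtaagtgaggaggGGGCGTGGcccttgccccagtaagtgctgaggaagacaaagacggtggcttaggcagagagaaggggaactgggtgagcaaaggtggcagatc
The 3 KLF motifs of the Il6st site start 32 bases apart, each at the same place in a repeated unit.

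Promoters divided the genes into an open and a closed set. Kit, Kitl, Il3ra and Il6st had a promoter peak in both libraries, and Flt3, Csf1r, Csf3r and Csf2rb had one in neither. The 4 of 8 open genes compare with 54.1% of all protein-coding genes, and the 4 closed with 40.2%, so neither count stands apart from the background. In single libraries the background was 58.5% in replicate 1 and 55.4% in replicate 2, and no member was open in 1 library alone (replicate 2 alone, 1.26% of all genes).

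Kitl (chr10:100015630-100100416, plus strand), the ligand gene, had the lowest open promoter. Its site at 0.3 kb, over the untranslated part of the first exon, joined 2 peaks in each library. The highest had a value of 0.665 in replicate 1 (95% Poisson interval 0.500 to 0.868) and 0.818 in replicate 2 (0.623 to 1.05). Both libraries placed it low, at percentiles 7.93 and 9.79 among all genes with a promoter peak. Its log2 ratio of replicate 2 to replicate 1 was 0.30. Relative to shared peaks of like height it was 0.49, where the 75th and 95th percentiles over all shared peaks were 0.26 and 0.65. A further peak in the first intron at 0.9 kb was called in replicate 2 alone, at 0.430. Within 150 kb no other peak was called but 1 in an intron at 78.6 kb, in replicate 1 alone and at 0.320.

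Kit (chr5:75574916-75656722, plus strand) had its highest peak over the first start (chr5:75574821-75575200). The value was 3.72 in replicate 1 (3.31 to 4.17) and 2.41 in replicate 2 (2.07 to 2.80). Both libraries placed it below the median open promoter, at percentiles 39.4 and 33.0, where the medians were 5.21 and 3.60. Replicate 1 was the higher, with a log2 ratio of replicate 2 to replicate 1 of -0.63, near the median of -0.50 over 26485 peaks shared 1 to 1. Of those peaks 84.4% were lower in replicate 2. Relative to shared peaks of like height the Kit promoter ratio was -0.063.

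The Kit promoter peak held 4 footprints in replicate 1 and 5 in replicate 2, and 2 of them overlapped between the libraries. The first, at chr5:75574898-75574920 in replicate 1 and chr5:75574900-75574910 in replicate 2, spans the capitals of the promoter sequence above and holds a KLF motif (CCNCNCCC, either strand). For motif matching, footprints were widened by 5 bases on each side. The other, at chr5:75574990-75574997 and chr5:75574990-75574996, touches an E-box (CANNTG), the letters read by TAL1 and related factors. A smaller peak in the first intron at 0.9 kb (chr5:75575684-75575985) had 0.973 in replicate 1 and 1.04 in replicate 2. It held 3 and 1 footprints, none with a motif of the 14 searched.

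**Figure D1:**
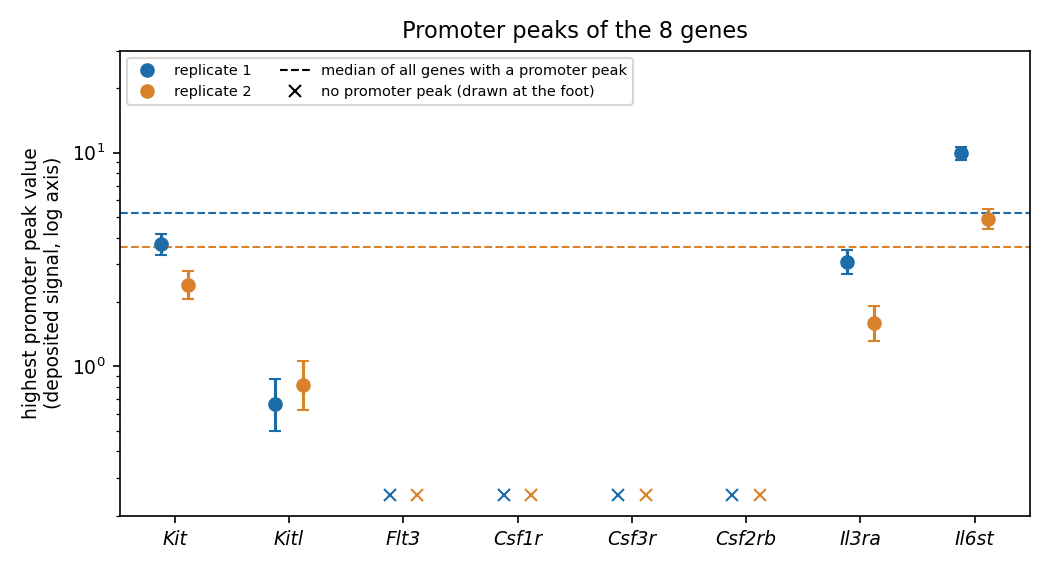
Highest promoter peak value of each gene (deposited signal, log axis) in replicate 1 and replicate 2, with 95% Poisson intervals as bars and the median of all genes with a promoter peak as dashed lines. Il6st lies above both medians, Kit, Il3ra and Kitl lie below them, and the other 4 genes have no promoter peak (crosses).

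Il3ra (chr14:14346275-14356011, plus strand) had its highest peak at -0.6 kb (chr14:14345561-14345760), inside the non-coding gene Gm48860 and 515 bases from the nearest start of Il3ra itself or any other gene. The value was 3.08 in replicate 1 (2.71 to 3.49) and 1.59 in replicate 2 (1.32 to 1.91), at percentiles 34.3 and 21.8 of open promoters. The libraries differed in what lay around it. Replicate 2 had 4 further peaks, at -0.3, 0.1, 0.4 and 1.0 kb, with values of 0.859, 0.665, 0.804 and 0.652. Replicate 1 had 1, over an exon at 1.7 kb, with 1.54. Footprints in the main peak numbered 4 and 1. No distal site was called within 150 kb of Il3ra in either library.

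Il6st (chr13:112464070-112510086, plus strand) had the highest promoter of the 8, over the untranslated first exon (chr13:112463881-112464160). Its value was 9.96 in replicate 1 (9.28 to 10.7) and 4.89 in replicate 2 (4.40 to 5.43), at percentiles 74.4 and 67.9. The log2 ratio of -1.02 became -0.12 relative to shared peaks of like height. The peak held 4 footprints in replicate 1 and 5 in replicate 2, among them GC boxes (GGGCGG, the letters of SP factors) and a KLF motif in both libraries.

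The 4 closed receptors had no base with a listed false discovery rate within 1 kb of any of their starts, in either library. Among all genes without a promoter peak, 2.74% in replicate 1 and 2.74% in replicate 2 had such a base. The peak nearest to a start of Flt3 (chr5:147330741-147400489, minus strand) was 2160 bases away in replicate 1 and 29552 in replicate 2. For Csf1r (chr18:61100598-61132149, plus strand) these distances were 2691 and 31918 bases, and for Csf3r (chr4:126024550-126044440, plus strand) 6617 and 8777. For Csf2rb (chr15:78325752-78353847, plus strand) the same peak was nearest in both, 4632 bases away. Around the Csf2rb starts, 24.2% to 34.2% of 32-base words recur elsewhere in the genome, and the part of this in the absence of a peak was not tested. Its close paralog and neighbour Csf2rb2 had no promoter peak either.

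CpG density of the promoter, a known correlate of openness, differed between the sets but did not separate them. The observed-to-expected CpG ratio from 250 bases before to 50 after the first start was 1.10 for Il3ra, 0.943 for Il6st, 0.641 for Kit and 0.594 for Kitl. It was 0.647 for Flt3, 0.363 for Csf1r, 0.257 for Csf3r and 0 for Csf2rb. The closed Flt3 promoter thus lay above the open promoters of Kit and Kitl. The median was 0.752 over genes open in both libraries and 0.198 over genes open in neither. RefSeq promoter windows (GRCm38.p6, the same span) matched 6 of the 8 genes, without Csf1r and Csf2rb. All 6 held a KLF motif, as did 49.5% of the 32851 windows of that table, and 1 of 6, Il3ra, held a GATA motif, against 29.8%.

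Over the 150 kb upstream of Kit, open sites were confined to a short stretch. This is not a sparse window by the standard of all genes. The whole Kit window had 0.786 shared distal sites per 100 kb, more than 57.2% of all coding genes, where the median was 0.634. The upstream part alone was not set against other genes. Open sites were called at -114.2 kb in both libraries and beside it at -114.5 kb in replicate 2 alone. From -114.2 kb to the promoter peak no peak was called, and no base had a listed false discovery rate apart from the stretches that reach into these peaks, and the same held for the rest of the 150 kb. The -114.2 kb site, 61229 bases from the nearest start of any gene, had 1.38 in replicate 1 (1.14 to 1.66) and 0.624 in replicate 2 (0.455 to 0.835). Its lowest false discovery rate was 1.4e-07 and 0.0042. Replicate 1 was the higher, with a log2 ratio of -1.15, or -0.83 relative to shared peaks of like height, below the 5th percentile of -0.67 over all shared peaks. In replicate 2 the neighbouring peak at -114.5 kb (chr5:75460300-75460572) had 0.665 (0.491 to 0.882), so that library had a pair of adjacent peaks there.

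The -114.2 kb site has 2 GATA motifs on opposite strands. The second, on the minus strand, forms a composite with a CTG 7 bases away. Replicate 1 had 2 footprints in the site and replicate 2 had 1, and the pair at chr5:75460682-75460694 and chr5:75460692-75460702 overlapped. They lie beside the composite at chr5:75460705-75460720, not on it.

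**Figure D2:**
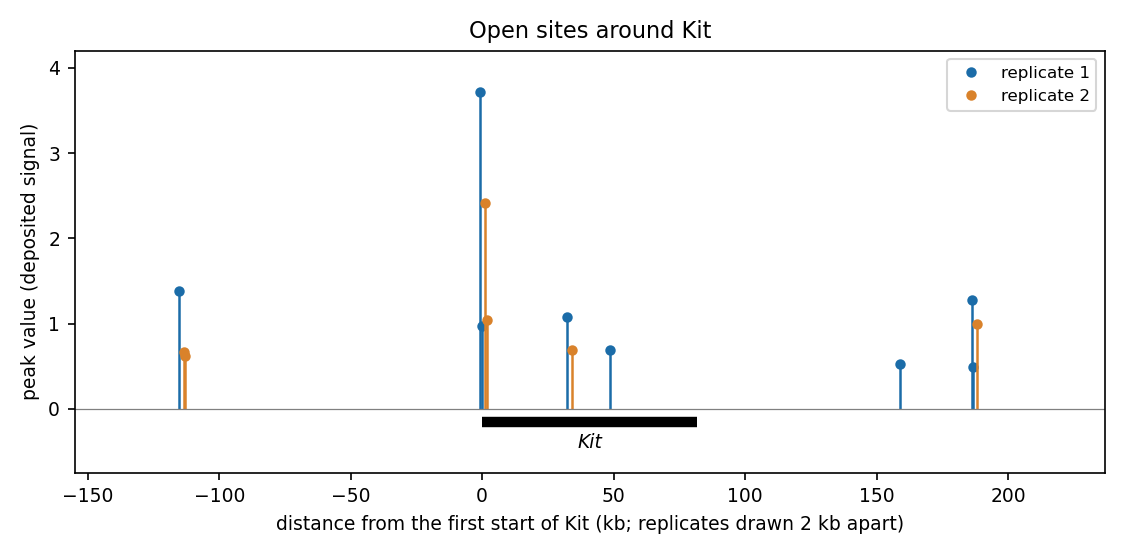
Peak values (deposited signal) against distance from the first start of Kit (kb), for replicate 1 and replicate 2, with the gene body as a black bar. The promoter is the highest site, at 3.72 and 2.41, and between -114.2 kb and the promoter neither library has a peak.

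Inside the Kit body, the intron site at 33.2 kb had 1.07 in replicate 1 (0.859 to 1.32) and 0.693 in replicate 2 (0.514 to 0.914), with 2 and 1 footprints. Its composite has CTG 8 bases before the GATA motif, and the footprints do not reach it. The intron site at 49.6 kb was called in replicate 1 alone, at 0.690 (0.521 to 0.896). It has the same composite spacing of 8 bases, and a footprint at chr5:75624479-75624489 covers most of its GATA motif. In replicate 2 it held no base with a listed rate.

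Past the gene, the site at 187.1 kb (chr5:75761761-75762360) had 1.28 in replicate 1 (1.05 to 1.55) and 0.998 in replicate 2 (0.781 to 1.26). Its 2 GATA motifs overlap, and this was the one distal Kit site with a GATA motif in a widened footprint in both libraries. Before widening, the footprints were chr5:75762114-75762122 in replicate 1 and chr5:75762110-75762122 in replicate 2. The first covers most of the second motif, and the other covers all of that motif. Weak peaks at 187.6 kb (0.493) and at 159.8 kb (0.530), the latter at the start of the non-coding gene Gm43101, were called in replicate 1 alone. Beyond the peaks, listed false discovery rates covered 75 bases in 5 stretches in replicate 1 and 54 bases in 9 stretches in replicate 2, the longest of 25 and 14 bases.

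**Figure D3:**
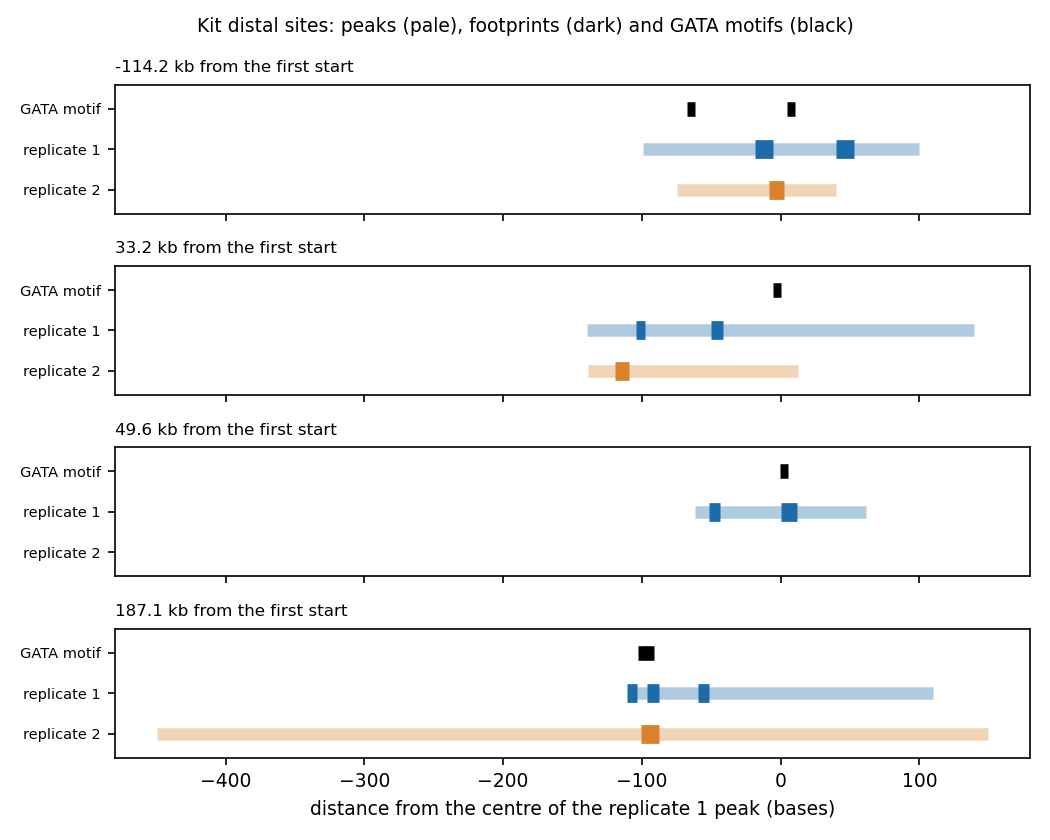
The 4 distal Kit sites with a GATA motif, drawn by distance from the centre of the replicate 1 peak (bases): peaks pale, footprints dark, GATA motifs black. At 187.1 kb a footprint meets a GATA motif in both libraries, and at 49.6 kb in replicate 1 alone. At -114.2 kb the nearest footprints lie 11 (replicate 1) and 3 bases (replicate 2) from a motif. At 33.2 kb they lie 37 and 105 bases away.

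Counted over all 8 genes, 29 distal sites were called in both libraries, 21 in replicate 1 alone and 4 in replicate 2 alone. Of the 54 distal sites, the 29 shared ones compare with 43.3% of all distal sites and the 21 with 44.0%. The 29 were 58.0% of those in replicate 1, against 49.6% of all distal sites there, and they were 29 of the 33 in replicate 2, against 77.3%. At least 1 shared distal site lay within 150 kb of 6 of the 8 genes and of 74.9% of all genes.

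Within 150 kb, the closed receptors had the most shared distal sites of the 8 genes, with 7 around Csf2rb, 6 around Csf3r, 5 around Flt3 and 5 around Csf1r. The open genes had 3 around Kit, 3 around Il6st and 0 around both Kitl and Il3ra. The median over all coding genes was 2. Csf2rb had more than 88.1% of all genes and Kit more than 54.9%. The order depended on the window and the list. Within 50 kb, Flt3 and Csf3r had 3 each, Il6st 2, and Csf2rb, Csf1r and Kit 1 each. Among peaks above the median value, Csf2rb had 4, Flt3 3, Csf1r 2, Csf3r and Il6st 1 each, and Kit 0. The nearest coding start was the gene's own for 0 of 5 at Flt3, 0 of 5 at Csf1r, 1 of 7 at Csf2rb and 4 of 6 at Csf3r, and it was for 3 of 3 at Kit and 1 of 3 at Il6st.

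**Figure D4:**
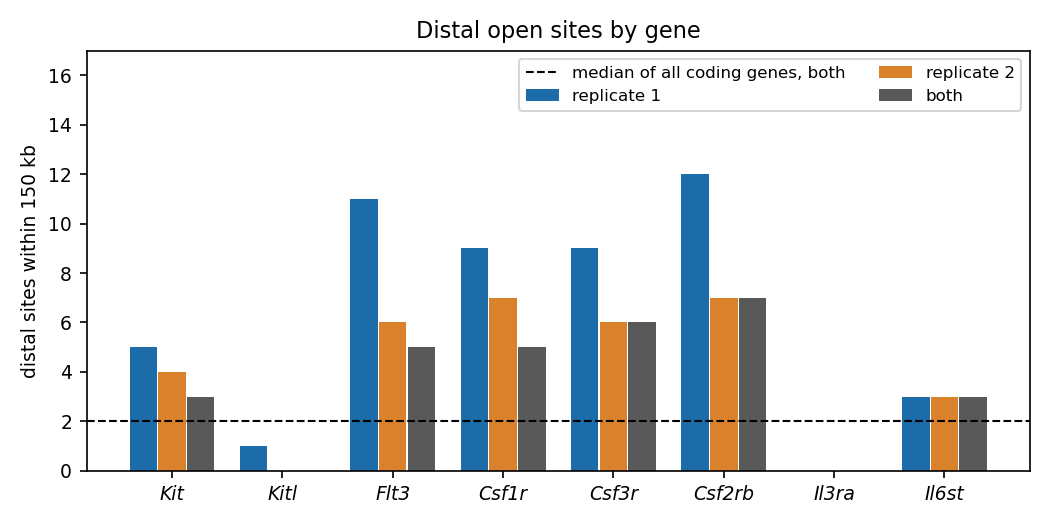
Number of distal sites within 150 kb of each gene body in replicate 1, in replicate 2 and in both. Csf2rb has 12, 7 and 7, Kit has 5, 4 and 3, Il3ra has none, and the dashed line is the median of 2 shared sites over all coding genes.

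The letters in the footprints of these sites differed from gene to gene. A CTCF pattern lay in a footprint in both libraries at 12 of the 29 shared distal sites, or 41.4%, against 13.0% of all shared distal sites. The 12 were 4 of 5 at Csf1r, 3 of 5 at Flt3, 4 of 7 at Csf2rb and 1 of 6 at Csf3r, with 0 of 3 at both Kit and Il6st. Counted in a footprint of either library, Csf3r had 4 of 6 and the other genes were unchanged. The share for either library was not computed over all sites. By single library, 14 of the 29 held the pattern in a footprint in replicate 1 and 13 in replicate 2. The shares of all shared distal sites were 19.0% and 13.8%. All these matches used footprints widened by 5 bases on each side. The members were not drawn as a sample and their neighbouring sites share a locus, so no test of the 41.4% was made.

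A GATA motif lay in a footprint in both libraries at 1 of the 29 sites, against 2.18% of all shared distal sites. Counted over single footprints of all member sites, GATA was in 6 of 179 in replicate 1 (3.35%) and 3 of 117 in replicate 2 (2.56%). The shares of all footprints were 1.82% and 1.21%. These few include footprints at the starts of Oscp1 and Stk40, near Csf3r. GATA motifs were in the central 200 bases of 10 of the 29 sites, or 34.5%, against 35.7% of all shared distal sites, and the GATA-E-box composite was in 4 of 29 against 11.2%. All 3 shared distal sites of Kit were among the 10, and 2 of them among the 4. Footprints were present in 70 of the 83 member sites of replicate 1 and 46 of the 61 of replicate 2, where 76.8% and 72.7% of all peaks had one. The measures differ somewhat, since a member site can join several peaks of a library and the background counts single peaks.

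Among the closed kinases, the highest shared distal sites at Flt3 lay beyond its 3' end, at 107.2 kb (2.30 and 1.91), 172.9 kb (1.91 and 1.61) and 76.8 kb (2.13 and 1.44), each with a CTCF pattern in a footprint in both libraries. The nearest coding starts were those of Cdx2, Gsx1 and Urad. Within Flt3 itself only the intron site at 68.7 kb was shared, at 1.80 in replicate 1 and 1.19 in replicate 2. Intron sites at 11.9, 18.9, 33.9 and 42.7 kb were called in replicate 1 alone, at 0.850, 0.973, 0.665 and 0.739. A site at -2.2 kb, the nearest to the start, was also of replicate 1 alone, at 1.07. In all, 5 of the 6 sites from -2.2 kb to the end of the gene were absent from the replicate 2 list. Of all distal sites of replicate 1, 49.6% were also called in replicate 2. These 5 were absent from the shorter list of replicate 1 too.

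Csf1r had its highest shared distal site at -122.1 kb in an intron of Camk2a, at 2.80 in replicate 1 and 2.09 in replicate 2. Sites at -60.6 kb (1.81 and 1.22) and, in an intron of Pdgfrb, at -32.0 kb (1.91 and 1.69) were lower. All 3 held a CTCF pattern in a footprint in both libraries. The site at 177.5 kb in Pde6a had 1.54 and 1.08, but 45.7% of its 32-base words recur elsewhere. In the Csf1r body, 1 site was called, in an intron at 8.1 kb, in replicate 1 alone at 1.04.

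Of the cytokine receptors, Csf3r had shared sites upstream at -61.6 kb (0.850 in replicate 1 and 0.956 in replicate 2) and -34.2 kb (0.641 and 1.18), both nearest to its own start. The site at -34.2 kb was higher in replicate 2, with a log2 ratio of 0.88, or 1.17 relative to shared peaks of like height, above the 95th percentile of 0.65. Downstream, sites at 61.6 kb in Oscp1 (3.15 and 1.61) and at 78.1 kb (1.53 and 1.22) were nearer to other genes. At Csf2rb, distal sites in Tmprss6, a liver gene of iron control, lay at 122.1 kb (4.88 and 3.63) and 122.7 kb (3.60 and 2.48). Others lay at 97.0 kb (3.38 and 2.27) and over an exon of Mpst at 87.5 kb (3.91 and 1.77). The one Csf2rb site nearest its own start, at -4.7 kb, had 1.55 in replicate 1 and 1.08 in replicate 2 and 3 and 2 footprints. The CTCF pattern printed above lay inside a footprint in replicate 1. In replicate 2 it lay in a footprint only after the widening by 5 bases on each side.

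All 3 distal sites of Il6st were called in both libraries, and 2 of them differed in height. The site at -24.0 kb had 2.14 in replicate 1 (1.84 to 2.49) and 0.749 in replicate 2 (0.562 to 0.977), a log2 ratio of -1.52, or -1.15 relative to shared peaks of like height. Replicate 1 had 4 footprints there, 3 of them with 1 of the repeated KLF motifs each, and replicate 2 had 0. A weak site over an exon of Il31ra at 66.1 kb had 0.715 and 0.707. The site at 114.2 kb, in an intron of Il31ra, had 32.5 and 48.2, in the top percentile of both libraries and higher in replicate 2. Its log2 ratio was 0.57, or 1.90 relative to shared peaks of like height. So near the top of the range, that comparison rests almost wholly on lower peaks. At this site, 75.2% of the 32-base words recur elsewhere, in up to 13 copies, so the placement of its reads is uncertain. Without it the members had 28 shared distal sites.

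**Figure D5:**
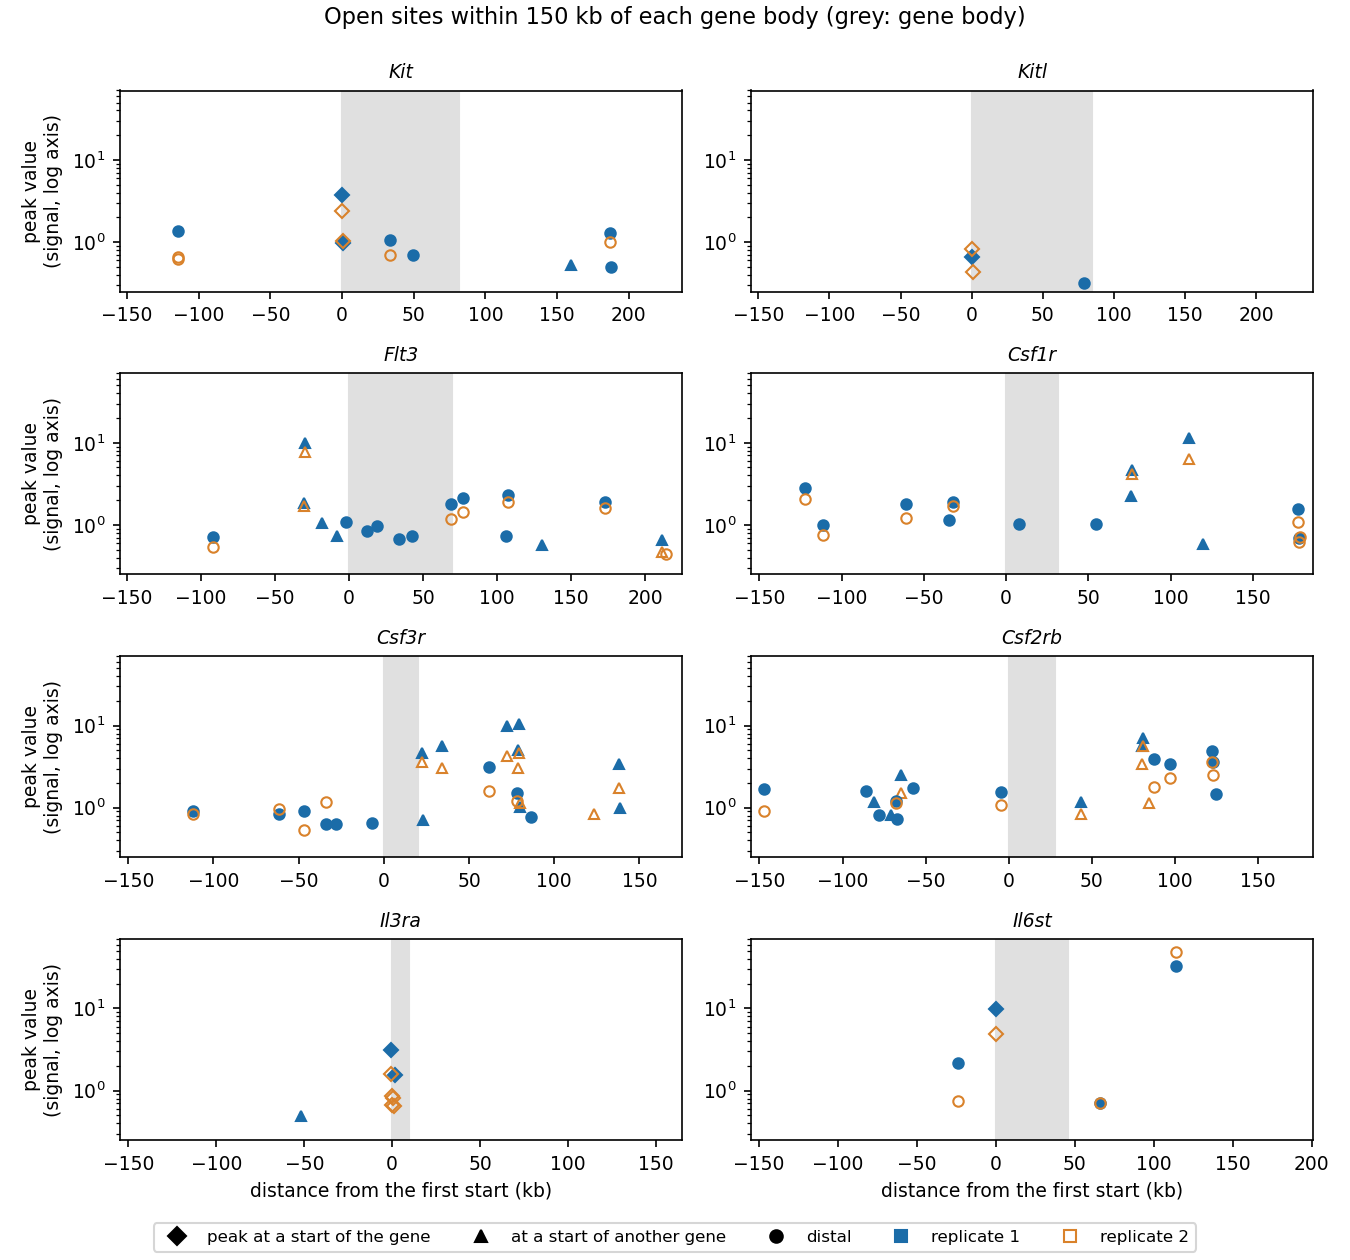
All open sites within 150 kb of each gene body (grey), with peak value (deposited signal, log axis) against distance from the first start (kb), for replicate 1 (filled) and replicate 2 (open symbols). Diamonds are peaks at a start of the gene itself, triangles those at starts of other genes and circles distal sites, and the 4 genes without diamonds are Flt3, Csf1r, Csf3r and Csf2rb.

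Genes of the same pathways were open more often downstream of the receptors than at ligands. Of 70 listed genes, 51 had a promoter peak in both libraries, or 72.9%, against 54.1% of all genes. The lists were chosen with earlier results of these data known. All 8 JAK-STAT mediators and all 20 adaptors and kinases were open in both, with Stat3 (20.5 in replicate 1 and 8.79 in replicate 2), Jak1 (14.1 and 5.30) and Jak2 (9.62 and 4.78) highest among the former. Among the latter, Map2k1 had 22.9 and 8.55 and Grb2 had 17.9 and 8.19. Many of these genes act in every tissue.

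Of 12 inhibitors, 10 were open in both libraries, and by the mean value of both libraries the highest were Cbl, a ubiquitin ligase that takes KIT off the surface (15.6 and 6.97), Cish (11.25 and 5.18) and Socs3 (10.7 and 5.41). Ptpn6, a phosphatase that acts on KIT, was open in replicate 1 alone, and Inpp5d in replicate 2 alone. Of 16 other blood cytokine receptors, 9 were open in both, with Ifngr1 (20.5 and 6.25), Ifnar1 (19.8 and 7.29) and Epor, which encodes the receptor for erythropoietin (15.3 and 6.39), highest. Csf2rb2, Il2rg and Il5ra were among the closed. Of 14 ligands, 4 were open in both. Epo, which the fetal liver makes, had 20.6 and 6.79, and Flt3l had 5.24 and 3.94, although Flt3 itself was closed. Cntf, Csf3 and Il3 were closed.

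By promoter peak value and promoter footprints in each library and shared distal sites, 5 measures ranked over all 21938 coding genes, the genes most like Kit were Tcf20, Sntb2 and Tmem86b. Tcf20 had 3.87 in replicate 1 and 2.36 in replicate 2, with 7 and 6 promoter footprints and 3 shared distal sites, where Kit had 3.72 and 2.41, 7 and 6, and 3. Sntb2 had 3.31 and 2.19, and Tmem86b had 3.60 and 2.34.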

How the data were processed

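DNase-seq was measured in 2 libraries of 1 group. For each library the authors deposited peaks in a longer and in a shorter list, footprint positions and false discovery rates, all on mm10 per the labels. The peak value is the authors' deposited cleavage signal, given per library. The false discovery rate is a deposited adjusted p-value, listed only below 0.05. The deposited footprint score is the constant 0.01 in the p-value column, so only positions were used. The aligner and the caller were not given in the sources used here, nor was any scaling between the libraries, so values stand side by side.

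The longer list was the main one. Sites are overlapping peaks of both libraries (at least 1 base), and a site's value is that of its highest peak. Ratios relative to shared peaks of like height subtract a running median over 501 peaks ranked by mean log value. Motifs were sought on both strands, in footprints widened by 5 bases and in 200-base windows at the peak centre. Uniqueness was checked with 32-base words of the reference, which is C57BL/6J, whereas the animals were part 129. Replicate intervals used exact Poisson limits. With 1 group no test was made. The scripts (Python 3.11.15, numpy 2.4.6, pandas 2.3.3, scipy 1.17.1, matplotlib 3.10.9) were tested on simulated data.

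Members and lists were chosen with earlier results of these data known. Named were all members, all peaks at their starts, all Kit sites, up to 4 distal sites of each other member by mean percentile, up to 3 genes of each pathway list with the highest promoter peaks, up to 3 without one, and the 3 genes most like Kit. One gene that the rule names is not reported here. The other sites and genes named were chosen after their values were seen. Alternatives were the shorter list, peaks above the median, other distances, windows and overlaps, and leaving out each library. One, leaving out sites with mostly recurring words, was chosen after seeing the data.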

Additional observations from a re-analysis of the deposited data

How the results depend on the processing

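The count of members open in both libraries was 4, or 3 with starts taken within 500 bases (without Il3ra) and 3 with peaks above the median value (without Kitl), and 4 with each library left out. The pathway count of 51 was 46 in the shorter lists, 45 among peaks above the median value, 50 and 54 with starts taken within 500 and 2500 bases, and 53 to 55 with 1 library left out. The 29 shared distal sites became 17 in the shorter lists, 11 within 50 kb and 11 among peaks above the median value, and 33 without replicate 1 and 50 without replicate 2, so these counts rest on the peak list and the window. The 4 shared Kit sites from 150 kb upstream to the end of the gene became 1 in the shorter lists and 1 among peaks above the median value, and 5 with either library left out. At -114.2 kb and 33.2 kb only replicate 1 was in its shorter list. The Kit promoter ratio of -0.63 became -0.063 relative to shared peaks of like height, by the construction of that measure. The 296 footprints in member sites of both libraries ranged from 284 to 336 with other overlaps. Footprints with a GATA motif fell from 9 to 3 without widening. The CTCF counts of the members were not recomputed without it. No result changed its sign among those recomputed. No paired analysis was possible because there was only 1 group. Read as 1 read per step of the value, the Kit distal sites called in 1 library alone held 40 to 56 reads. Whether the other library missed them for its depth was not tested.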

Other observations

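Among the 50 member sites called in both libraries, 44 had a lower value in replicate 2, as did 84.4% of all peaks shared 1 to 1. Relative to shared peaks of like height, 2 lay below the 5th percentile of all shared peaks, the Kit site at -114.2 kb and the Il6st site at -24.0 kb, and 3 above the 95th. Of these 3, the distal ones were the Csf3r site at -34.2 kb and the Il6st site at 114.2 kb. Each compares 1 library with 1 library, and what moved them was not tested.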
